A study of Mus musculus with 12 samples.

Results

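The S100 genes described here encode small calcium-binding proteins, and their transcripts were measured by RNA-Seq in myelin purified from mouse brains. The 10 genes S100a1, S100a4, S100a5, S100a6, S100a8, S100a9, S100a10, S100a13, S100a16 and S100b were chosen by symbol, with their values in these 12 libraries already seen, out of 21937 genes in the deposited table. No threshold separated them from other genes, and 7 further S100 genes are in the table. The levels and differences of the 10 members are therefore a description. Where a member is said to be called, it passed the threshold of the fit over all genes, and that call is no independent evidence about the member. Myelin, the insulating sheath that oligodendrocytes form around axons, was enriched by sucrose density gradient centrifugation as a fraction of light membranes. The mice were wild-type male c57Bl6/N animals, with no stated treatment. The 4 groups were postnatal day 18 (P18), postnatal day 75 (P75), 6 months and 24 months of age, with 3 libraries each. The study describes the 6-month libraries as coming from individual brains; for the other ages no source states whether a library is 1 mouse, so the spread between libraries may be partly technical.

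S100 proteins bind calcium through a pair of EF-hand loops, usually as dimers, and most of them then expose a surface that binds a target protein. S100b and S100a1 are found at high levels in glia and in muscle or nerve cells, S100a10 differs from its relatives in binding annexin A2 without calcium, and S100a8 pairs with S100a9 as calprotectin, an abundant protein of neutrophils. Some members are also released and act on receptors such as RAGE, encoded by Ager, and TLR4. In brain, S100b is best known as a protein of astrocytes and of part of the oligodendrocyte lineage, and S100a5 is known from olfactory sensory neurons.

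The libraries held 20299052 to 27214385 reads on genes. Transcripts of the oligodendrocyte and myelin list were abundant at every age, with a summed normalized read count of 1286062 to 6209204 over 10 genes, and Mbp alone took 4.76% to 20.8% of the reads. Markers of other cells were present too. The 10 astrocyte markers summed to 132971 to 155635 and the 7 neuron markers to 143189 to 207356, while the microglial list ran from 3496 to 10630 and the endothelial list from 550.3 to 733.1. In bulk samples such as these, fewer cells of a type and less RNA per cell cannot be told apart. A normalized read count is the number of reads on a gene divided by the size factor of its library. Unless a sentence says per kilobase, levels are not divided by transcript length.

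The family is mostly a gene cluster. Of the 10 members, 9 lie on chromosome 3, and 8 of these lie within 185 kb (NCBIM37, chr3:90314956-90499643). S100a10 lies 2.86 Mb beyond that cluster, and S100b lies on chromosome 10 (chr10:75716598-75723904, plus strand). S100a1 (chr3:90314956-90318314, minus strand) and S100a13 (chr3:90318357-90328503, plus strand) are transcribed away from each other with 42 bases between them. S100a4 ends 2.48 kb before S100a5 (chr3:90412445-90415702), which in turn ends 1.11 kb before S100a6, all on the plus strand. S100a8 (chr3:90472993-90473956, plus strand) and S100a9 (chr3:90496554-90499643, minus strand) lie 22.6 kb apart. The merged exons of the members cover only 392 bases in S100a8 to 1617 bases in S100a16, against a median of 3751 bases over the genes tested.

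Start regions are shown for 5 members, the pairs S100a1 with S100a13 and S100a8 with S100a9, whose levels moved together, and S100a5, whose P75 peak its neighbours S100a4 and S100a6 lacked. Each window runs from 250 bases before to 50 bases after the start site, 5′ to 3′ on the strand of the gene, from RefSeq on GRCm38.p6. Windows were matched for 9 of the 10 members. For S100a1 and S100a13 the capitals mark the 204 bases that the windows share, read from opposite strands, so that both genes start from the same stretch of DNA. For S100a8 and S100a9 the capitals mark the letters TATAAA.
S100a1, chr3:90514281-90514580, minus strand: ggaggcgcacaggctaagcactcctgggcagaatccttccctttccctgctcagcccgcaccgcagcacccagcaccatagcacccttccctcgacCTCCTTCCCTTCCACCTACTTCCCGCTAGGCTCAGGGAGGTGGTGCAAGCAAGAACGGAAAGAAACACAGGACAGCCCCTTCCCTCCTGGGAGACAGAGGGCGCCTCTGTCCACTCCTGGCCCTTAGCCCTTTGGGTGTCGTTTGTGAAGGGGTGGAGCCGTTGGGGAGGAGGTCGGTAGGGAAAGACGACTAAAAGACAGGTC
S100a13, chr3:90514185-90514484, plus strand: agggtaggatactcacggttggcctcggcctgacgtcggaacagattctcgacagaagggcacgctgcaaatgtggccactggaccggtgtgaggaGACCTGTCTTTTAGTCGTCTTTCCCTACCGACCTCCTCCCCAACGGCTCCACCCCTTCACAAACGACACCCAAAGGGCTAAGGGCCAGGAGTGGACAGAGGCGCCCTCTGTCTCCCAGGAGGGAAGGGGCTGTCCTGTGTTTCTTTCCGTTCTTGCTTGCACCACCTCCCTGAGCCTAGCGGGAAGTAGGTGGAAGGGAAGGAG
S100a5, chr3:90608272-90608571, plus strand: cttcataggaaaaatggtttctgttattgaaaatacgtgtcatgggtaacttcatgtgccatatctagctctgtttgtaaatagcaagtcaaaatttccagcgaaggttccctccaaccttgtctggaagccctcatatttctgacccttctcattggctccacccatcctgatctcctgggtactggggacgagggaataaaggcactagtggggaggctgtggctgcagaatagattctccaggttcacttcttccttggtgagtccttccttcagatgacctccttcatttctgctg
S100a8, chr3:90668821-90669120, plus strand: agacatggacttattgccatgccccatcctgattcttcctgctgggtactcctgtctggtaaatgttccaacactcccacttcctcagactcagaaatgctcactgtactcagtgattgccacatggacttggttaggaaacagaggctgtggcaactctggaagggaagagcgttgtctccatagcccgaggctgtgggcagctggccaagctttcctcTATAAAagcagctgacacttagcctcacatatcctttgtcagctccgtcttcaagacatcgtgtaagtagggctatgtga
S100a9, chr3:90695672-90695971, minus strand: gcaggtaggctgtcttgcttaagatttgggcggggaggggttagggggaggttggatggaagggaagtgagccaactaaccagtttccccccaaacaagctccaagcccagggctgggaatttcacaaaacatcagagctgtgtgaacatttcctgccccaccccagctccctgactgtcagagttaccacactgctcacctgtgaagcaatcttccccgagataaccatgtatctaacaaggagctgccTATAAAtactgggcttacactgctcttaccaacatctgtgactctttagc
The shared S100a1 and S100a13 stretch lies in windows with 11 and 14 CpG dinucleotides over their full length. All 32817 windows had a median of 7 and quartiles of 3 and 20, and the other windows of members had 2 to 6. The letters TATAAA, searched on both strands, were found in the windows of S100a4, S100a8 and S100a9. They began 31 bases before the start site in S100a4, 30 before it in S100a8 and at position 1 in S100a9. Of all windows, 13.6% hold them. CCAAT was found in the windows of S100a5, S100a6 and S100b and in 37.4% of all windows, and GGGCGG in those of S100a9 and S100a16 and in 35.6% of all. These are matches of letters and do not show that a factor binds there.

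The members differed widely in level. Per kilobase of merged exon, S100b led with a mean of 25909 over the 12 libraries, followed by S100a1 at 3848. Then came S100a13 at 1440, S100a16 at 1297, S100a10 at 1096 and S100a6 at 1022, whose ranges over the libraries overlapped. S100a5 followed at 659, with a range of 23.2 to 1877 that crossed most of the others. S100a4 at 145, S100a9 at 101 and S100a8 at 87.3 were lowest, and their ranges overlapped as well. S100b made up 59.2% to 76.1% of the summed normalized read count of all S100 genes at P18 and 75.4% to 81.1% at P75. At 6 months its share was 86.3% to 89.0%, and at 24 months 87.5% to 88.2%. Per kilobase its share of the 10 members alone was 47.1% to 66.6% at P18 and 80.9% to 81.6% at 24 months. The summed normalized read count of the other 9 members was 10469 ± 1195 (SD, n = 3) at P18, 10894 ± 1007 at P75, then 5355 ± 666 at 6 months and finally 6552 ± 368 at 24 months.

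**Figure D1:**
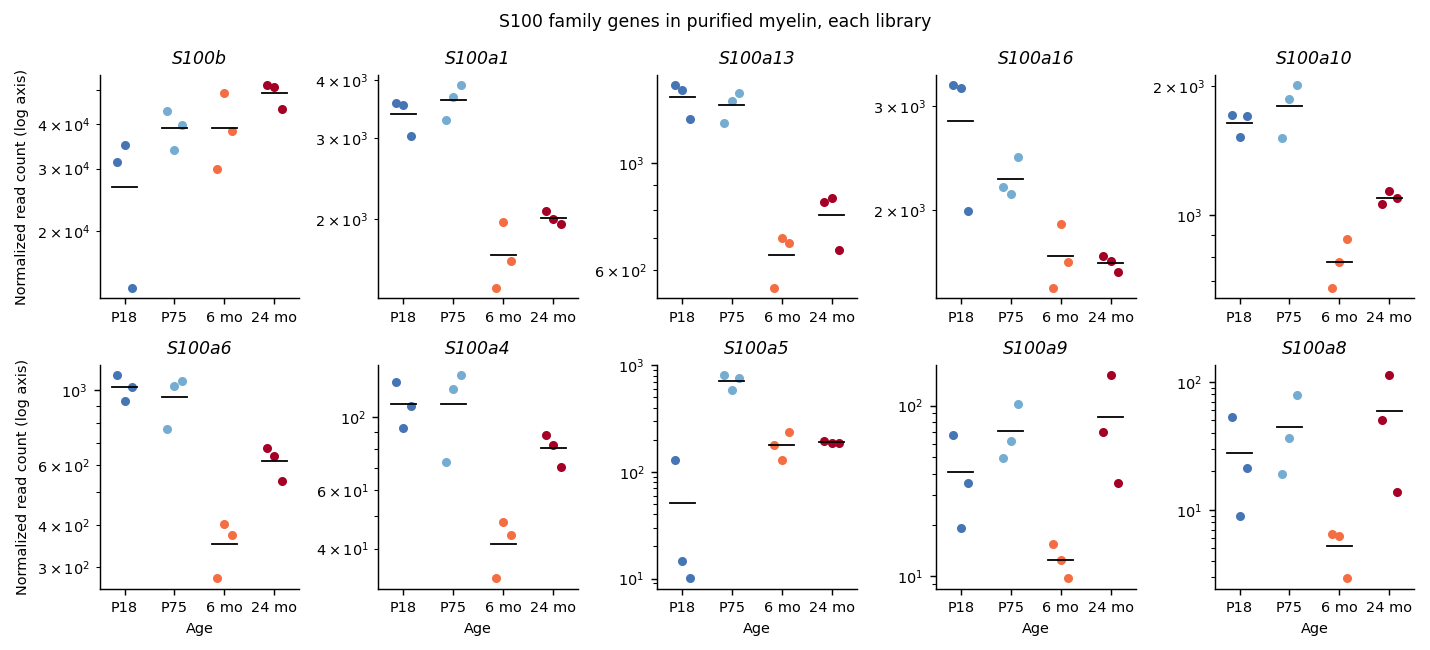
Normalized read count (log axis, a scale of its own for each gene) of the 10 members against age, 1 point per library and a line at the mean of 3 libraries. Most chromosome 3 members lie lowest at 6 months, S100b is highest at 24 months, and S100a5 goes from 10.04 to 129.5 at P18 to 584 to 811 at P75.

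The question was how each member changed across the ages, and it was read from a limma fit over all 12 libraries on log2(normalized read count + 1). A gene was called at a Benjamini-Hochberg adjusted p under 0.1 over the 14634 genes whose mean normalized read count was 10 or more, and all 10 members passed that filter. Differences are on the log2 scale, the second age minus the first, ± the standard error of the fit. Neighbouring comparisons share the libraries of the age between them. From P18 to P75, 2 members were called higher and 0 lower, where 25.9% of all genes were called higher and 22.9% lower. With every library scaled to the same total, 3 members were called higher and 0 lower, against 32.4% and 12.5% of all genes. From P75 to 6 months, 0 were called higher and 9 lower, where the values for all genes were 31.2% and 29.4%. The step from 6 to 24 months had 6 called higher and 0 lower, against 16.6% and 12.7% of all genes. From P18 to 24 months, 3 were called higher and 6 lower, against 34.7% and 34.3%. The median log2 difference of the members was 0.11, -1.28, 0.43 and -0.51 in the 4 comparisons, beside 0.02, 0.01, 0.03 and -0.01 over all genes tested. The members were chosen with these values known, so nothing is read from the counts.

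Transcript length moved with these differences. The 1703 other genes tested with merged exons of 392 to 1617 bases had a median log2 difference of -0.47 from P75 to 6 months, with 60.4% of them called lower, and of 0.24 from 6 to 24 months, with 35.6% called higher. Among the 185 genes of 500 to under 750 bases, the size of S100a1, S100a4, S100a6, S100a9 and S100a13, the medians were -0.81 and 0.43. Genes of 5000 bases or more went the other way, with medians of 0.12 and -0.06. The low point at 6 months of most chromosome 3 members was thus shared by short transcripts in general. A further fit, added after this trend was seen, removed the trend of each library with length. It called 0 members higher and 7 lower from P75 to 6 months, against 29.9% and 28.9% of its 14411 genes. In the step from 6 to 24 months it called 5 higher and 0 lower, against 12.8% and 13.2%. From P18 to P75 it called 2 higher and 0 lower, against 24.6% and 25.9%, and from P18 to 24 months 4 higher and 5 lower, against 32.1% and 38.0%. Length-corrected values are given below beside each member.

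**Figure D2:**
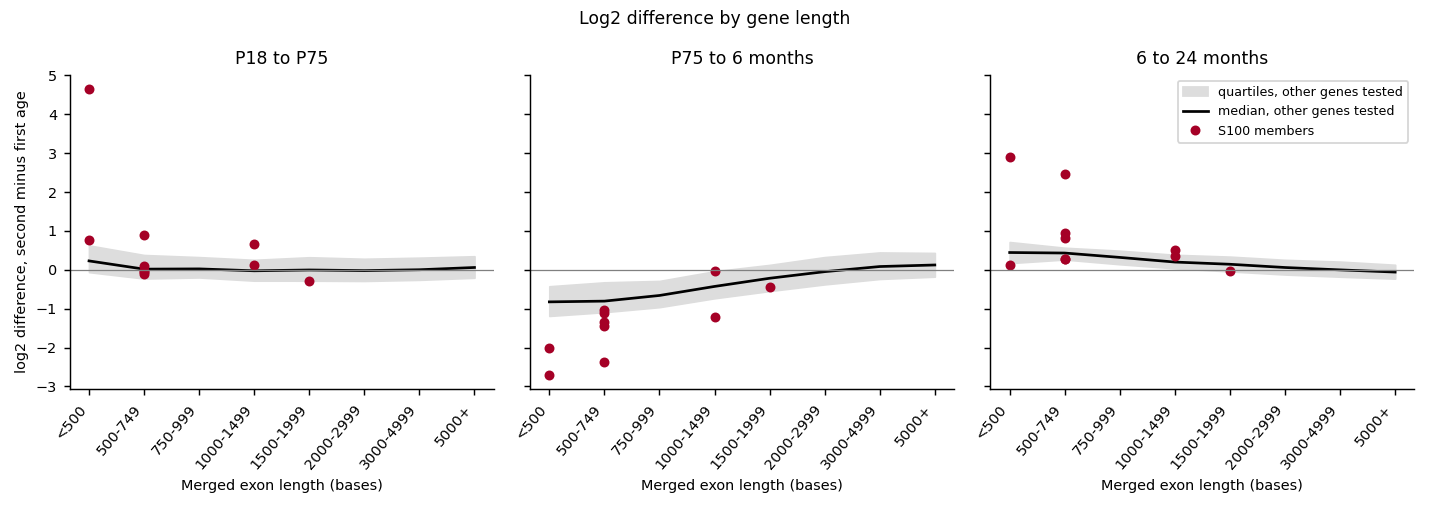
Log2 difference (second minus first age) against merged exon length in bases, for the 3 steps between consecutive ages. The line and the grey band give the median and quartiles of the other genes tested in each length class and the points give the 10 members; the median of the genes of 500 to under 750 bases lies at -0.81 from P75 to 6 months and at 0.43 from 6 to 24 months.

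**Figure D3:**
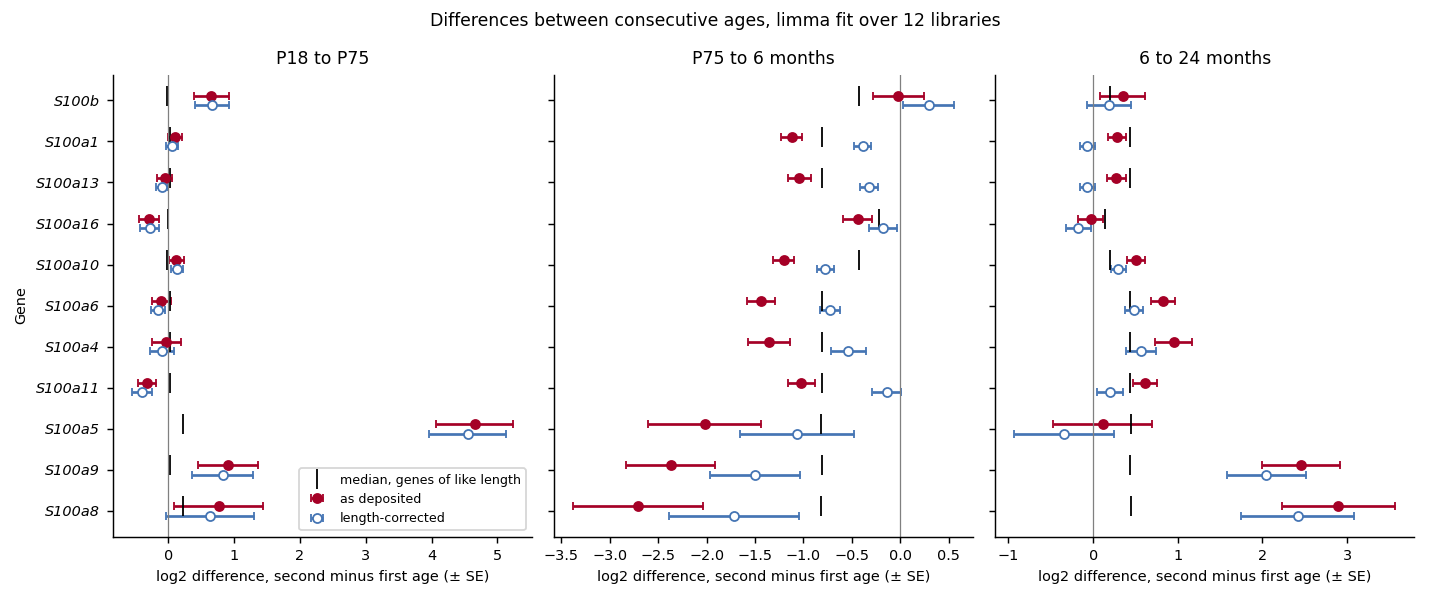
Log2 difference ± SE of each member and of S100a11 between consecutive ages (a horizontal scale of its own in each panel), as deposited (filled) and after length correction (open), with a tick at the median of other genes of like length. From P75 to 6 months S100a10 and S100a6 lie below their ticks and stay below 0 after correction, while S100a11 comes to -0.14.

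S100b, the glial calcium sensor, was the most abundant member at every age and was higher at 24 months than at P18. Its normalized read counts were 31220, 35077 and 13823 at P18, 43500, 33931 and 39724 at P75, 29905, 49001 and 38354 at 6 months, and 51691, 50967 and 44188 at 24 months. The 24-month libraries all lay above the P18 libraries, while P18 and P75 overlapped and the 6-month libraries spread across most of the range. Among all genes S100b ranked 56 by mean level at P18 and 19 at 24 months. The log2 difference from P18 to P75 was 0.65 ± 0.27 and passed the threshold, that from P75 to 6 months was -0.02 ± 0.27, that from 6 to 24 months was 0.35 ± 0.27, and that from P18 to 24 months was 0.98 ± 0.27. P18 replicate 3 stood apart, with 13823 against 31220 and 35077. Without it the P18 to P75 difference was 0.23 and no longer called, and the P18 to 24 months difference was 0.56 and still called. The P18 to P75 call was also lost without P75 replicate 1 (0.57) and without P75 replicate 3 (0.64). With all libraries kept, it was lost in the fit of only the 2 ages compared, under quantile normalization, and in edgeR and DESeq2. After length correction the 4 differences were 0.66, 0.29, 0.19 and 1.14.

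The astrocyte markers were called in both directions. Of the 10 on the list, 1 was called higher and 2 lower from P18 to P75, 2 and 1 between P75 and 6 months, 2 and 1 between 6 and 24 months, and 4 and 3 between P18 and 24 months. Of all genes, 25.9% and 22.9% were called higher and lower from P18 to P75, and 31.2% and 29.4% from P75 to 6 months. The shares were 16.6% and 12.7% from 6 to 24 months, and 34.7% and 34.3% from P18 to 24 months. The summed normalized read count of the markers ran from 138736 to 155635 at P18, 149440 to 151983 at P75, 132971 to 153288 at 6 months and 135914 to 142148 at 24 months. Glul, the glutamine synthetase gene and the marker with the highest mean over all 12 libraries, was at 38580.3 ± 1768 (SD, n = 3), 43513 ± 3016, 36810 ± 4300 and 35362 ± 1609 in order of age, with no step called. Aldoc, a glycolytic enzyme of astrocytes, was at 44085 ± 1036 at P18 and 29687 ± 780 at 24 months. Gfap, the intermediate filament of astrocytes, was at 10953 ± 3822, 5729 ± 296, 5858 ± 1307 and 9083 ± 761 in order of age. The myelin list of 10 genes had 8 called lower and 0 higher both from P18 to P75 and from P18 to 24 months, where S100b was called higher. Within each age, however, S100b was highest in the library with the highest Mbp share of reads. In order of replicate, Mbp took 15.1%, 20.8% and 9.47% at P18 and 7.03%, 5.06% and 4.76% at P75. It took 5.14%, 8.48% and 5.34% at 6 months and 7.52%, 6.33% and 5.34% at 24 months. Only P75 replicates 2 and 3 were in the opposite order for S100b. The part of astrocytes or of myelin content in the S100b level was not tested.

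S100a1 and S100a13, which face away from each other across 42 bases, had nearly the same course. S100a1 regulates calcium release and S100a13 takes part in the release of FGF1. S100a1 was at 3572, 3525 and 3029 at P18, 3281, 3671 and 3907 at P75, 1420.1, 1971 and 1625 at 6 months, and 2086, 2002 and 1952 at 24 months. S100a13 was at 1460.4, 1425 and 1236 at P18, 1214, 1351 and 1402 at P75, 549, 699 and 683 at 6 months, and 830.2, 846 and 661 at 24 months. For both genes the P18 and P75 libraries overlapped, and all 6 of these lay above all libraries of 6 and 24 months. From P75 to 6 months S100a1 fell by 1.12 ± 0.11 and S100a13 fell by 1.04 ± 0.12. Much of that was shared by genes of like length, whose median was -0.81, and the length-corrected differences were -0.39 ± 0.09 and -0.32 ± 0.09, still called. Between 6 and 24 months the differences were 0.28 ± 0.11 for S100a1, just inside the threshold although the libraries overlapped, and 0.27 ± 0.12 for S100a13, just outside it. After length correction both were -0.068 ± 0.09 and not called, so the S100a1 call was lost and the sign of its value changed. The S100a1 call was also lost without any 1 of the 24-month libraries, at 0.25 to 0.30, without 6 months replicate 1, at 0.17, and without 6 months replicate 3, at 0.27. The ratio of the S100a1 to the S100a13 normalized read count lay between 2.37 and 2.95 in all 12 libraries. Other genes had courses more like each of them, since neither was among the other's 3 nearest genes by Pearson r. The genes do not overlap in the annotation, and whether the counting used strand is not given in the sources used here.

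S100a16, a widely expressed member, was lower at 24 months than at P18. It was at 3264, 3228 and 1996 at P18, 2191, 2131 and 2462 at P75, 1477, 1899 and 1638 at 6 months, and 1672, 1645 and 1572 at 24 months. P18 replicate 3 was again the low library at P18, within the range of the later ages. The difference from P18 to P75 was -0.29 ± 0.15 and not called, with overlapping libraries. S100a16 fell by 0.44 ± 0.15 from P75 to 6 months, and the difference from 6 to 24 months was -0.03 ± 0.15. It fell by 0.76 ± 0.15 from P18 to 24 months, and by 0.64 ± 0.15 after length correction. The P75 to 6 months difference after length correction was -0.18 ± 0.15 and not called.

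S100a10, the partner of annexin A2 at membranes, was lowest at 6 months, also after length correction. It was at 1711, 1517 and 1701 at P18, 1509, 1865 and 2014 at P75, 675, 776 and 882 at 6 months, and 1061, 1136 and 1099 at 24 months. The 4 ages fell into 3 levels without overlap, P18 with P75, then 24 months, then 6 months. S100a10 fell by 1.21 ± 0.11 from P75 to 6 months, where other genes of 1000 to under 1500 bases had a median of -0.43, and the length-corrected difference was -0.77 ± 0.09. It then rose by 0.51 ± 0.11 to 24 months, or by 0.30 ± 0.09 after length correction. Anxa2, which encodes annexin A2, went the other way at 6 months. It was at 350 ± 14.5 (SD, n = 3) at P18, 252 ± 11.95 at P75, then 309 ± 46.8 at 6 months and finally 392 ± 17.1 at 24 months. Its limma difference was -0.47 ± 0.11 from P18 to P75 (adjusted p = 0.0028), 0.28 ± 0.11 from P75 to 6 months (adjusted p = 0.040) and 0.35 ± 0.11 from 6 to 24 months (adjusted p = 0.036). After length correction the P75 to 6 months value of Anxa2 was 0.20 and not called. Whether the course of S100a10 differs from that of Anxa2 was not tested.

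S100a6 and S100a4 are neighbours on either side of S100a5, and their own courses were alike. S100a6 (calcyclin) binds CacyBP, an adaptor of protein degradation, and S100a4 binds non-muscle myosin and is known from motile cells. S100a6 was at 1109, 925 and 1021 at P18, 766, 1026 and 1065 at P75, 278, 401 and 374 at 6 months, and 674, 640.1 and 539.7 at 24 months. S100a4 was at 127, 92.7 and 107 at P18, 73.2, 121 and 134 at P75, 32.5, 47.9 and 43.8 at 6 months, and 88.2, 82.2 and 70.4 at 24 months. In both genes the 6-month libraries lay below all others. The 24-month libraries lay below those of P18, and for S100a6 also below those of P75. From P75 to 6 months S100a6 fell by 1.44 ± 0.14 and S100a4 fell by 1.35 ± 0.22. To 24 months S100a6 rose by 0.83 ± 0.14 and S100a4 rose by 0.95 ± 0.22. Genes of like length had medians of -0.81 and 0.43 in these steps. The length-corrected differences were -0.72 ± 0.10 and 0.49 ± 0.10 for S100a6 and -0.54 ± 0.18 and 0.56 ± 0.18 for S100a4, all called. From P18 to 24 months S100a6 fell by 0.72 ± 0.14. The S100a4 value of -0.43 ± 0.22 was called, but its length-corrected value of -0.072 ± 0.18 was not. That call was also lost in 6 of the 12 fits that left out a library. The value was -0.32 without P18 replicate 1 and -0.34 without 24 months replicate 3. It was -0.43 to -0.45 without P18 replicate 3, P75 replicate 2, 6 months replicate 3 or 24 months replicate 2.

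S100a5, a calcium-binding member that also binds zinc and copper, was highest at P75. Its counts were 129.5, 14.7 and 10.04 at P18, 811, 584 and 759 at P75, 177, 128 and 235 at 6 months, and 194, 185 and 187 at 24 months. All P75 libraries lay above all others. P18 replicate 1 stood apart from the other P18 libraries, with 109 reads where the lowest had 10, and it reached the level of the lowest 6-month library. S100a5 rose by 4.65 ± 0.58 from P18 to P75 and by 3.98 to 5.76 with each P18 library left out in turn, the latter without P18 replicate 1. It fell by 2.02 ± 0.58 from P75 to 6 months, where the 74 other genes under 500 bases had a median of -0.82, and the length-corrected difference of -1.07 ± 0.59 was not called. To 24 months the further difference was 0.11 ± 0.58. From P18 to 24 months S100a5 rose by 2.75 ± 0.58, or by 3.13 ± 0.59 after length correction. Without P18 replicate 1, 2 or 3 that rise was 3.85, 2.32 or 2.07, called each time.

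Some olfactory transcripts, Omp and Stoml3 among them, also rose from P18 to P75. Omp, the olfactory marker protein gene, was at 177, 50.9 and 16.1 at P18, 502, 282 and 272 at P75, 344, 255 and 394 at 6 months, and 287, 248.7 and 329.5 at 24 months. Stoml3, a stomatin-like protein of olfactory cilia, was at 20.2, 3.39 and 1.0 at P18, and between 26.0 and 52.5 in the later libraries. The order of the 3 P18 libraries was the same for S100a5, Omp and Stoml3, with replicate 1 highest and replicate 3 lowest. Omp rose by 2.65 ± 0.53 from P18 to P75 in limma (adjusted p = 0.00085), by 3.51 without P18 replicate 1 and by 1.82 without P18 replicate 3, and its P75 to 6 months difference was -0.05 ± 0.53 (adjusted p = 0.94). The ratio of the S100a5 to the Omp normalized read count, not per length, was 0.289 to 0.732 at P18, 1.61 to 2.79 at P75, 0.502 to 0.595 at 6 months and 0.567 to 0.743 at 24 months. It was thus highest in the 3 P75 libraries. Of the 11 olfactory sensory neuron genes tested, 6 were called higher and 0 lower from P18 to P75. Over all genes the shares were 25.9% and 22.9%. The counts were 3 and 2 between P75 and 6 months, against 31.2% and 29.4% of all genes. They were 3 and 1 between 6 and 24 months, against 16.6% and 12.7%, and 8 and 1 between P18 and 24 months, against 34.7% and 34.3%. The list summed to 7738 to 8701 at P18, 9043 to 9893 at P75, 8731 to 9453 at 6 months and 10463 to 10889 at 24 months, and none of its genes was at 0 in all libraries of an age. Gng13, a G protein subunit of sensory cells, had a difference of -0.01 ± 0.14 from P18 to P75 (limma, adjusted p = 0.96) and, like S100a5, fell from P75 to 6 months, by 1.04 ± 0.14 (adjusted p = 1.9e-05). Adcy3, the olfactory adenylyl cyclase gene, was at 0.16 ± 0.17 from P18 to P75 (adjusted p = 0.49) and rose by 1.98 ± 0.17 from P75 to 6 months (adjusted p = 4.0e-07). Gnal, the olfactory G protein gene that striatal neurons also use and the most abundant of the list, stayed between 2989 and 3582 in all libraries. Unlike S100a5, Omp and Stoml3, these genes were lowest in replicate 1 among the P18 libraries. In order of replicate, Adcy3 was at 57.04, 73.44 and 80.35, Gng13 at 2657, 3280 and 3095, and Gnal at 3035, 3347 and 3262. The 8 olfactory bulb neuron genes summed to 1475 to 2159, 2568 to 2651, 3332 to 3498 and 3107 to 3554 in order of age, with 6 called higher and 0 lower from P18 to P75. The part of olfactory tissue in the S100a5 level was not tested.

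**Figure D4:**
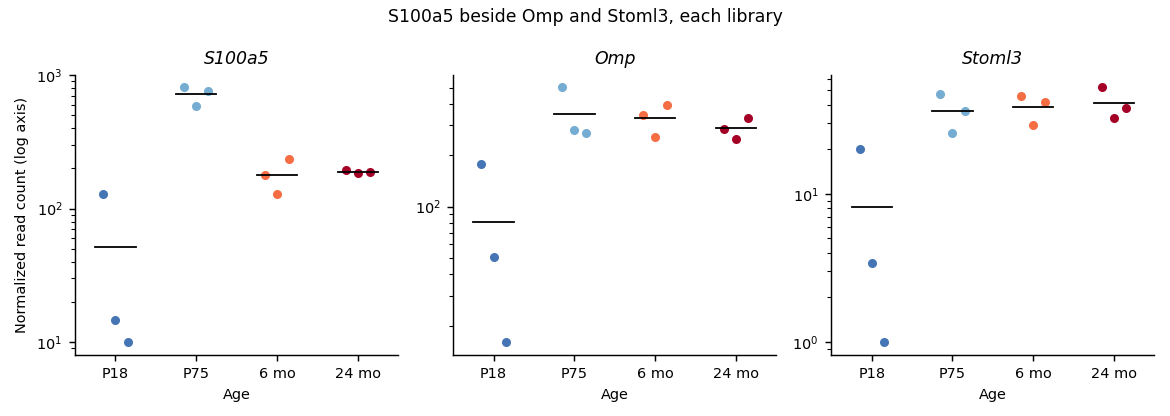
Normalized read count (log axis, a scale of its own for each gene) of S100a5, Omp and Stoml3 against age, 1 point per library and a line at the mean of 3. P18 replicate 1 is the highest P18 library in all 3 panels, and of these 3 genes S100a5 alone drops after P75, from 584 to 811 down to 128 to 235. Gng13, Adcy3 and Gnal, not plotted, were lowest in replicate 1 among the P18 libraries.

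S100a8 and S100a9, the chains of calprotectin, were lowest at 6 months and uneven everywhere else. S100a8 was at 53.5, 9.04 and 21.1 at P18, 19.0, 36.2 and 78.5 at P75, 6.50, 6.21 and 2.92 at 6 months, and 50.5, 113.5 and 13.9 at 24 months. S100a9 was at 67.7, 19.2 and 35.2 at P18, 49.1, 62.1 and 103 at P75, 15.4, 12.4 and 9.73 at 6 months, and 70.3, 151 and 35.2 at 24 months. The 6-month libraries lay below all others in both genes, with 3 to 8 reads on S100a8 and 10 to 19 on S100a9, so single values there carry large counting error. Within P18, P75 and 24 months the libraries differed up to several fold, and the same library was highest for both genes at each age. S100a8 fell by 2.71 ± 0.67 and S100a9 fell by 2.37 ± 0.46 from P75 to 6 months. To 24 months S100a8 rose by 2.90 ± 0.67 and S100a9 rose by 2.46 ± 0.46. Without 24 months replicate 2 these rises were 2.22 and 1.93, and without replicate 3 they were 3.69 and 2.97, all still called. The length-corrected differences were -1.72 ± 0.67 and 2.42 ± 0.67 for S100a8 and -1.50 ± 0.46 and 2.05 ± 0.46 for S100a9, all called. From P18 to 24 months the differences were 0.95 ± 0.67 for S100a8, not called over all libraries, and 0.99 ± 0.46 for S100a9, called although the ages overlapped. The S100a8 value moved with single libraries. It was 0.27 without 24 months replicate 2 and 0.36 without P18 replicate 2, but 1.74 without 24 months replicate 3 and 1.58 without P18 replicate 1, the last 2 called. The S100a9 call was lost without 24 months replicate 2 (0.46), 24 months replicate 1 (1.01) or P18 replicate 2 (0.56). The ratio of S100a8 to S100a9 reads was at most 0.789 in any library.

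Other neutrophil markers were sparse. Of the 11 in the table, 4 passed the filter. Called higher and lower were 0 and 0 from P18 to P75, against 25.9% and 22.9% of all genes. The counts were 0 and 1 (Cxcr2) from P75 to 6 months, against 31.2% and 29.4%. They were 1 (Lcn2) and 0 from 6 to 24 months, against 16.6% and 12.7%. For P18 to 24 months they were 1 (Lcn2) and 1 (Cxcr2), against 34.7% and 34.3%. The list summed to 299 to 391 at P18, 331 to 432 at P75, 139.7 to 217 at 6 months and 259 to 455 at 24 months. Cxcr2, a chemokine receptor found beyond neutrophils, made up most of that sum up to 6 months, at 261 ± 62.6 (SD, n = 3), 302 ± 47.7, 129 ± 36.3 and 172 ± 25.99 in order of age. It fell by 1.26 ± 0.21 from P75 to 6 months in limma (adjusted p = 0.00013), the step in which S100a8 and S100a9 fell. Elane, the neutrophil elastase gene, was at 0 in all P75 libraries. Ngp and Camp, granule proteins of neutrophil precursors, reached at most 6.93 and 8.92 in any library. Lcn2, an acute-phase protein made by neutrophils and also by reactive astrocytes, was at 25.8, 211 and 38.9 at 24 months and at 0.89 to 31.1 in the other libraries. It rose by 4.01 ± 0.72 from 6 to 24 months in limma (adjusted p = 0.0022), and by 3.11 without 24 months replicate 2. At 24 months Lcn2, S100a8 and S100a9 were all highest in replicate 2, but Lcn2 was lowest in replicate 1 and the S100 genes in replicate 3. At P18 Lcn2 was highest in replicate 3, at 31.1, and S100a8 and S100a9 in replicate 1. At P75 Lcn2 stayed at 3.01 to 4.64, where S100a9 was at 49.1 to 103. The part of neutrophils in the calprotectin differences was not tested. The 8 T cell markers summed to 132 to 274 in all libraries. Of the red blood cell list, the 4 globin genes are listed at 0 in every library, and Alas2 and Slc4a1 were called lower from P18 to P75.

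**Figure D5:**
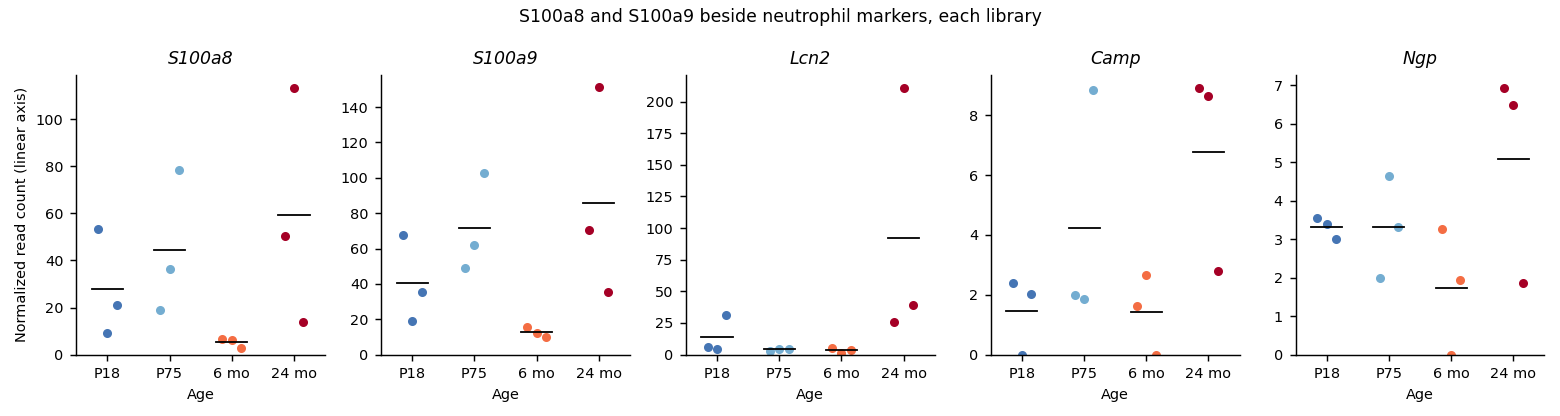
Normalized read count (linear axis from 0, a scale of its own for each gene) of S100a8 and S100a9 beside the neutrophil markers Lcn2, Camp and Ngp, 1 point per library and a line at the mean of 3. Both S100 genes are at 15.4 or less at 6 months, and Lcn2 reaches 211 in the 24-month library where they peak, while Camp and Ngp stay under 9. At P18 Lcn2 is highest in replicate 3 and both S100 genes are highest in replicate 1.

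The 2 other S100 genes tested were also lower at 6 months than at P75. S100a11, which also binds annexins, had a mean of 375 per kilobase, above S100a4, S100a8 and S100a9. Its normalized read count was 277 ± 60.7 (SD, n = 3) at P18, 218 ± 6.6 at P75, then 107 ± 12.02 at 6 months and finally 164 ± 12.96 at 24 months. It fell by 1.02 ± 0.14 from P75 to 6 months (limma, adjusted p = 2.4e-05) and rose by 0.62 ± 0.14 from 6 to 24 months (adjusted p = 0.0088). After length correction these differences were -0.14 ± 0.15 and 0.20 ± 0.15, and neither was called. S100a3, known from hair follicles, fell by 1.47 ± 0.35 from P18 to 24 months (limma, adjusted p = 0.0016), from 22.0 ± 7.3 to 7.4 ± 3.0, and by 1.14 after length correction. S100a2, S100a7a, S100a14, S100g and S100z were below the filter, with at most 7 reads in any library.

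The list of partners and receptors of S100 proteins held 27 genes, of which 25 passed the filter. From P18 to P75, 10 were called higher and 5 lower, against 25.9% and 22.9% of all genes. From P75 to 6 months, 12 were called higher and 3 (Cacybp, Sugt1 and Stk38) lower, against 31.2% and 29.4% of all genes. After length correction the counts were 9 and 2, against 29.9% and 28.9%. The step from 6 to 24 months had 6 called higher and 3 lower, against 16.6% and 12.7% of all genes. P18 to 24 months had 14 and 3, against 34.7% and 34.3%. The median log2 differences of the list were 0.25, 0.23, 0.06 and 0.50 in the 4 comparisons. Cacybp and Sugt1 encode the S100a6 binding protein and a chaperone partner, and Stk38 a kinase that S100b binds. These genes were picked as partners in other tissues, and no binding was measured here.

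Several partners changed more than 2-fold. Syt1, the synaptic vesicle calcium sensor, forms a complex with S100a13 and FGF1 and is also on the neuron list. It was at 3851 ± 345 (SD, n = 3) at P75 and 19472 ± 2226 at 6 months, a rise of 2.34 ± 0.13 in limma (adjusted p = 8.6e-09). Of the 7 neuron markers, 4 were called higher and 2 lower in this step, against 31.2% and 29.4% of all genes. The part of neurons in the Syt1 rise was not tested. Htr1b, a serotonin receptor that S100a10 binds, was at 21.6 ± 1.45, 10.2 ± 3.77, 46.1 ± 15.1 and 24.9 ± 0.95 in order of age. It fell by 1.07 ± 0.28 from P18 to P75 and rose by 2.09 ± 0.28 from P75 to 6 months, the step in which S100a10 fell. Among receptors for released S100 proteins, Tlr4 was at 11.99 ± 5.57, 20.1 ± 4.82, 33.6 ± 3.81 and 48.6 ± 8.38 in order of age and rose by 2.03 ± 0.32 from P18 to 24 months. Bsg and Nptn, 2 related surface proteins that bind S100a9 or S100a8, rose by 1.06 ± 0.11 and 1.45 ± 0.13 from P18 to 24 months, Nptn from 11430 ± 1993 to 30842 ± 1031. Cd36, a fatty acid receptor, rose by 1.37 ± 0.26, and Ryr1, the calcium release channel that S100a1 binds, rose by 1.25 ± 0.22. Anxa1, a partner of S100a11, rose by 1.35 ± 0.22, from 45.1 ± 15.1 to 114 ± 17.4. Ager was below the filter, at 3.25 to 14.4 in all libraries.

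Genes with a course most like each member were ranked by Pearson r over the 12 libraries, which share age, depth and length effects, so r is a description. S100a8 and S100a9 were each other's nearest gene, at 0.98. S100a6 was among the 3 genes nearest to S100a4, at 0.98. Dbi, the acyl-CoA binding protein gene, was among the 3 nearest to both S100a1 and S100a13, at 0.99 for each. S100a1 and S100a13 were not among each other's 3 nearest. The gene nearest to S100a1 was Mcee, at 0.99, that nearest to S100a10 was Lysmd2, at 0.99, that nearest to S100a13 was Ggct, at 0.99, and that nearest to S100a6 was Med30, at 0.99. For S100a4 it was Apoc1, at 0.98, and for S100a16 it was Me1, a lipid synthesis enzyme, at 0.97. For S100b the 3 nearest were Anp32b, at 0.95, Bcas1, a myelin-associated gene, at 0.95, and Ankrd40, at 0.95. For S100a5 it was Gcnt4, at 0.93, and Omp was not among its 3 nearest.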

How the data were processed

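RNA-Seq of purified myelin was available for 12 libraries, 3 at each of 4 ages. The authors aligned reads to mm9 with TopHat (TopHat2 2.0.8 in the submitters' processing notes, with SAMtools 0.1.19, and a later release in the methods), counted them per gene with HTSeq 0.5.4p1 and scaled the counts with size factors from DESeq; the gene annotation is not given in the sources used here. The deposited signal is this normalized read count, neither on a log scale nor divided by length. All values up to 3000 were whole multiples of 1 read within 0.005, so reads could be recovered.

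Ages were taken from the labels. The main fit was limma 3.58.1 (R 4.3.3, trend, empirical Bayes) on log2(value + 1) over all 12 libraries with age alone, for 14634 genes with a mean of at least 10, called at a Benjamini-Hochberg adjusted p under 0.1. Merged exon lengths came from GENCODE vM1 on NCBIM37 and matched 14411 of these genes by symbol. The length correction subtracted a lowess curve (span 0.3) of each library's deviation from the gene mean against log2 length. edgeR 4.0.16, DESeq2 1.42.0, other pseudocounts (0.5, 10), filters, scalings, a replicate block and each library left out were alternatives. The methods were tested on simulated data. Tables and figures used Python 3.11.15 with pandas 2.3.3, numpy 2.4.6 and matplotlib 3.10.9. Start regions and their motifs came from RefSeq (GRCm38.p6).

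The members and lists were chosen with earlier results of these data known. The text names the 10 members, the other S100 genes, partners called with a change over 2-fold, Anxa2, the markers named beside a result, and the 3 genes most like a member. Libraries of the same replicate number at different ages are different mice. Deviations from the age means of same-numbered libraries correlated at 0.16, 0.10 and 0.19 between P75 and 6 months. In the other 3 comparisons the values lay between -0.21 and 0.03. Differently numbered libraries were not correlated for reference, so these values do not show whether the numbers pair libraries.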

Additional observations from a re-analysis of the deposited data

How the results depend on the processing

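Of 908 alternative values for the differences of the 10 members in 4 comparisons, 33 lost a call with the same sign. Calls were gained by 16, and 18 had another sign than the main value. Of these 18, 17 were values not called in the main fit (among them S100a13 and S100a5 from 6 to 24 months after length correction, at -0.068 and -0.35, and S100a4 from P18 to P75 without P75 replicate 1, at 0.23). The 1 value called in the main fit was S100a1 from 6 to 24 months after length correction, at -0.068, where its call was lost. From P18 to P75 the number of members called went from 2 to 1 in the fit of only the 2 ages compared and under quantile normalization. With each library left out it lay between 1 and 3, and it was 1 without P75 replicate 3; in each of these cases S100b was not called. From 6 to 24 months it went from 6 to 3 with a mean over 100, since S100a4, S100a8 and S100a9 are not tested there. The number of all genes called from 6 to 24 months was 4287, and with each library left out it ran from 2478 without 6 months replicate 1 to 5323 without P18 replicate 3. It was 2492 without 24 months replicate 2, 2763 without 6 months replicate 2 and 2821 without 24 months replicate 1; the cause was not tested. With the replicate block the members called numbered 2, 9, 6 and 8 in the 4 comparisons, and the block changed 1 call, that of S100a4 from P18 to 24 months, at -0.43. From P75 to 6 months the block left 9 members called and 8695 of all genes against 8865. Scaling every library to the same total moved the median of all genes from P18 to P75 to 0.14. The lowest members, S100a8 and S100a9, rest on few reads at 6 months, and 3 libraries an age limit every value.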
